A study of Mus musculus with 4 samples.

Results

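The carbonic anhydrases Car1 and Car2 and 6 genes of the red cell lineage were followed in granulocyte/monocyte progenitors (GMP), the bone marrow cells that give rise to granulocytes and monocytes. The 8 genes are Klf1, Car1, Car2, Alas2, Abcb10, Tfrc, Hba-a1 and Ermap, of 12393 genes with a probe set on both array types, and a probe set was taken where its platform symbol was or included 1 of them. This gave 18 probe sets, all of them on both array types, of which 3 are array controls. GMP were purified by flow cytometry from Icsbp wild type mice and from Icsbp (Irf-8) deficient mice of 10 to 16 weeks. Every array held RNA from its own preparation, for which bone marrow of 10 or more wild type mice or cells of 8 or more Icsbp-deficient mice had been pooled. Each array type, 430A and MOE430_2, held 1 array of each genotype. For the wild type 430A sample the label names a mixed C57/Bl6 and S129Ola background but no genotype, and the series' design text places it as wild type. The sources used here do not say which strain the other mice were or which part of Icsbp was deleted.

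Red cell precursors make haemoglobin from globin chains and haem, and haem in turn needs iron, which the transferrin receptor brings into the cell. The transcription factor KLF1 acts beside GATA factors and binds CACCC-like sequences near genes for globins, haem enzymes and red cell membrane proteins. Carbonic anhydrases interconvert carbon dioxide and bicarbonate and are abundant in red cells, and Car2 is also made by osteoclasts.

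Of the 8 genes, 4 had a probe set called lower in Icsbp-deficient GMP: Car1, Car2, Abcb10 and the alpha globin genes that Hba-a1 stands for. These were 6 of the 11 tested member probe sets, where 2.14% of all tested probe sets were called lower. The members were chosen with earlier results of these data known. As a mean of both array types Car2 was 4.63-fold lower, and the tested Abcb10 probe sets were 2.43-fold and 2.11-fold lower. The remaining Abcb10 probe set, not tested, was 1.04-fold lower. Car1 had a mean log2 ratio of -2.37, whose size depends on the offset added before log2, because both Icsbp-deficient signals lay under that offset. The alpha globin signal showed the widest gap between the array types of all members, with log2 ratios of -0.98 on 430A and -6.28 on MOE430_2 for 1 probe set. Klf1 and Ermap did not pass the test, at log2 ratios of -0.30 and -0.04 on 430A and -1.63 and -1.41 on MOE430_2. Tfrc had mean ratios between -0.18 and -0.01, and Alas2 stayed at low signal on all 4 arrays. In sorted but bulk material such as this, fewer cells of a type and less RNA per cell cannot be told apart.

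Signals are given below with the wild type array first and the Icsbp-deficient array after it. They were scaled to a trimmed mean of 500 on each array, and log2 ratios are Icsbp-deficient over wild type after an offset of 50 was added, which understates changes at low signal. The test was limma with array type as a block, run over 13576 probe sets with Benjamini-Hochberg adjustment, and ± is its moderated standard error over n = 2 ratios, 1 for each array type. Of the 15 member probe sets that are not controls, 11 passed the filter on low signal and 4 did not. Among the 11 tested, 6 were lower at an adjusted p under 0.05 and 0 were higher in limma. Over all tested probe sets 5.13% were called, 2.14% lower and 2.99% higher. At an unadjusted p under 0.05 the members' counts were 8 lower and 0 higher, against 9.26% of all tested probe sets lower and 9.31% higher. Both ratios were below 0 for 9 of the 11, against 32.8% of all tested, and the ratio was under -1 for 5 of them on 430A (1.11% of all tested) and for 7 on MOE430_2 (1.12%). The filter used the mean of the 4 arrays, so a probe set could pass through its wild type signal alone. Car1, Ermap and the second alpha globin probe set were under the 40th percentile on both Icsbp-deficient arrays. Ermap was under it on the wild type 430A array as well, at percentile 37.7. A ratio within 1 array type has no replicate. Where the 2 ratios of a probe set lie far apart, the moderated error is smaller than their own spread.

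**Figure D1:**
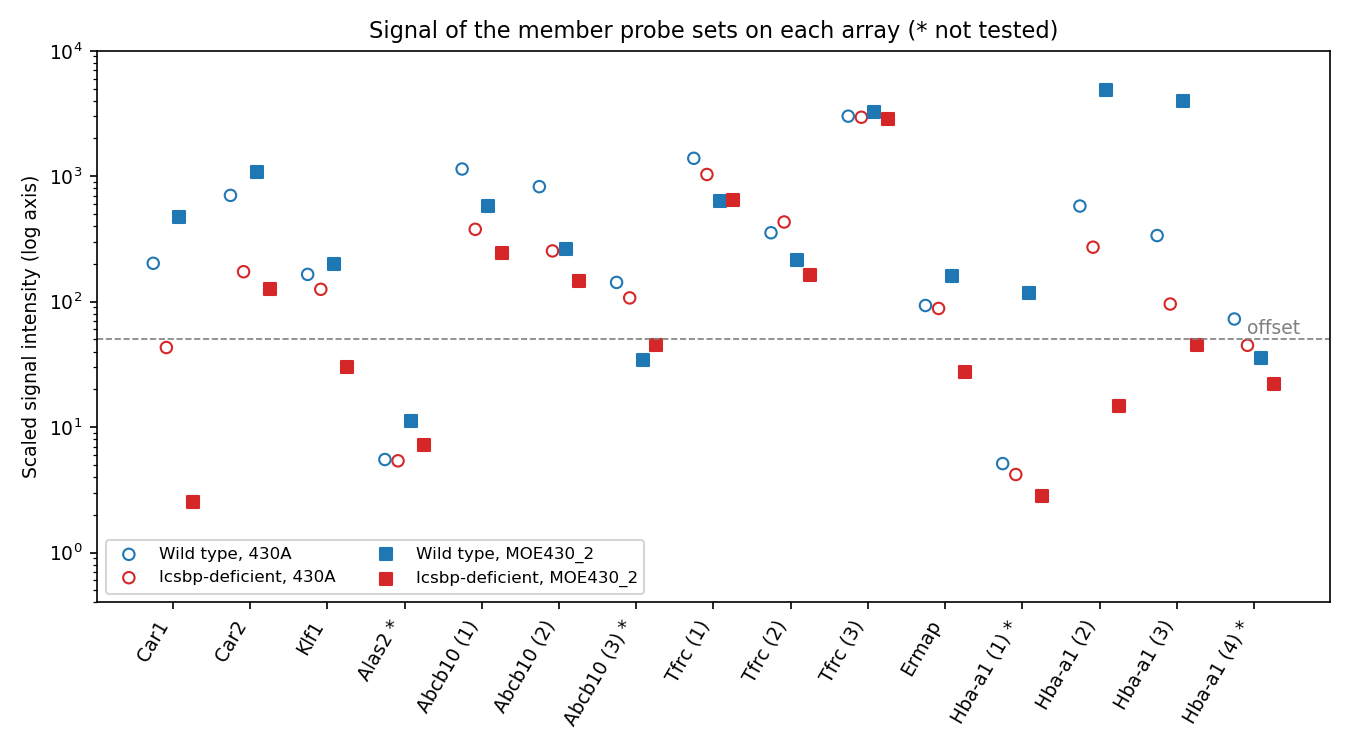
Scaled signal intensity (log axis) of the 15 member probe sets that are not controls, on each of the 4 arrays, with the offset of 50 as a dashed line and an asterisk on probe sets that were not tested. Hba-a1 (2) and Hba-a1 (3) stand at 4894 and 3983 on the wild type MOE430_2 array and at 14.8 and 45.4 on the Icsbp-deficient one, and for each Tfrc probe set the genotypes lie close together within an array type.

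Klf1 encodes the zinc finger factor that drives terminal erythroid differentiation. Its probe set read 164.9 and 125.4 on 430A, and 201.0 and 29.9 on MOE430_2. Wild type was the higher array in both types, and the Icsbp-deficient MOE430_2 array stood below the offset. The mean log2 ratio was -0.97 ± 0.29 (limma adjusted p = 0.104), from -0.30 and -1.63. Klf1 was not called in any of 9 other settings that kept all 4 arrays, with adjusted p from 0.0535 to 1.

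Ermap encodes an erythroid membrane protein of the immunoglobulin superfamily that carries the Scianna blood group antigens. It read 93.2 and 88.2 on 430A, a near match, and 160.2 and 27.7 on MOE430_2. The mean log2 ratio was -0.73 ± 0.31 (adjusted p = 0.248). With no block it was -0.25 without the wild type MOE430_2 array and -1.20 without the wild type 430A array. As for Klf1, the wild type signal was higher on the MOE430_2 than on the 430A array and the Icsbp-deficient signal was lower.

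The alpha globin genes Hba-a1 and Hba-a2 encode near-identical chains of adult haemoglobin, and 3 of the 4 probe sets read here carry both symbols, so the genes could not be separated. The first of these read 578.2 and 271.6 on 430A, and 4894 and 14.8 on MOE430_2. The second read 336.5 and 95.7 on 430A, and 3983 and 45.4 on MOE430_2. Both were thus lower in Icsbp-deficient GMP on each type, by 2.13-fold and 3.52-fold in scaled signal on 430A. On MOE430_2 the Icsbp-deficient signals lay under the offset, so no fold is given there and the size of the log2 ratio depends on the offset. Mean log2 ratios were -3.63 ± 0.86 (adjusted p = 0.0400) and -3.41 ± 0.66 (adjusted p = 0.0166). These errors borrow from other probe sets, and the 2 ratios alone gave standard errors of 2.65 and 2.00.

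The alpha globin calls did not hold in every setting. Among 10 others that kept all 4 arrays, the first probe set was called in 5, with adjusted p from 0.00649 to 0.862, and the second in 6, with adjusted p from 0.00161 to 0.882. The ratio was negative in all 10 for both probe sets. Without the filter on low signal neither was called, with adjusted p of 0.162 and 0.0982. Without the wild type MOE430_2 array, in a fit with no block, the ratios were -2.06 (adjusted p = 0.487) and -1.60 (adjusted p = 0.478). The other probe set with both symbols was too low to test, with 5.12 and 4.19 on 430A and 116.2 and 2.84 on MOE430_2. It was above the offset on the wild type MOE430_2 array and on no other. The only probe set with Hba-a1 as its sole symbol was not tested either, at 72.7 and 44.9 on 430A and 35.8 and 22.1 on MOE430_2. The beta globins, which pair with the alpha chains, were read by 1 probe set that carries the symbols Hbb-bt, Hbb-bs, Hbb-b2 and Hbb-b1 and was looked up after the alpha globin values were seen. It read 285.2 and 81.4 on 430A and 3229 and 13.2 on MOE430_2, with a mean log2 ratio of -3.53 ± 0.71 (adjusted p = 0.0206). Its 2 ratios lay far apart, at -1.35 on 430A and -5.71 on MOE430_2, where the Icsbp-deficient signal was under the offset. On the Icsbp-deficient arrays it stood at percentiles 35.4 and 17, so it passed the filter through its wild type signal.

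The stretches upstream of Klf1, Ermap and Hba-a1 are shown. They were chosen because probe sets of these erythroid genes had a ratio lower by more than 1 on MOE430_2 than on 430A. For Hba-a1 those probe sets also carry Hba-a2. The probe set with Hba-a1 as its sole symbol, not tested, had a MOE430_2 minus 430A difference of 0.11. Each stretch is the 250 bases before the annotated start in RefSeq on build GRCm38.p6, and the table held 6 of the 8 members. Capitals mark a GATA-type match (AGATAA, where the first letter may also be T and the last also G, on either strand) or a CACCC-type match (CCNCNCCC, on either strand), and no match of one type overlapped one of the other. The letters were settled after the sequences had been seen. The Klf1 window is chr8:84901732-84901981 on the plus strand, the Ermap window chr4:119189996-119190245 on the minus strand and the Hba-a1 window chr11:32283422-32283671 on the plus strand.
Klf1: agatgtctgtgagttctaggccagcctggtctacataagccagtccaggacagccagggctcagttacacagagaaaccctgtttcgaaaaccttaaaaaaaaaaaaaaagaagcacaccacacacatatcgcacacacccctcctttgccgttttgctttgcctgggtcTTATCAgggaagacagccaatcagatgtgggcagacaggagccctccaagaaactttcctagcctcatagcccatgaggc
Ermap: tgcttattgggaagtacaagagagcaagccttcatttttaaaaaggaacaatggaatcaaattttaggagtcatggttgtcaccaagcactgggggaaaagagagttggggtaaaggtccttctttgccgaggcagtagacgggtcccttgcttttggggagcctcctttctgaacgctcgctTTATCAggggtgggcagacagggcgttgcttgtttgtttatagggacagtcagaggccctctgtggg
Hba-a1: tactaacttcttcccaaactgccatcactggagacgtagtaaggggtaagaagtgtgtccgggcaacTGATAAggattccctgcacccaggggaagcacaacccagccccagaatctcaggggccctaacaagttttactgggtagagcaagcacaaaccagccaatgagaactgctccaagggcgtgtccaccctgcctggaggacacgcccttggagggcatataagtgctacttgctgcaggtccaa

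All 3 hold 1 GATA-type match, whose first base lies at -80 for Klf1, -67 for Ermap and -183 for Hba-a1, counted from the start. Alas2 holds 1 as well, so 4 of the 6 members with an entry have such letters, against 26.5% of 32851 promoters of the same length. Members are counted by gene, with 7 windows in all since Tfrc has more than 1, whereas the shares are by window. The CACCC-type letters CCNCNCCC were found for Alas2 and Tfrc, 2 of the 6, against 45.9% of promoters. These letters miss many plain CACCC stretches, which were not counted or marked. A plain CACCC stands in the Klf1, Hba-a1 and Abcb10 windows, and in the Ermap window on the other strand. The share of all promoters with a plain CACCC was not counted, so its presence in these windows has nothing to be set against. The Abcb10 window, whose gene fell on both array types, holds neither of the 2 counted types. A match of letters is a description of the sequence and not a binding site.

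Car1 and Car2 encode cytosolic carbonic anhydrases. Car1 read 202.1 and 43.1 on 430A, and 472.5 and 2.52 on MOE430_2. Both Icsbp-deficient arrays lay under the offset and both wild type arrays well above it. The mean log2 ratio was -2.37 ± 0.36 (adjusted p = 0.00544), from -1.44 and -3.30. It was negative in all 9 other settings that kept all 4 arrays and called in 7 of them, with adjusted p from 0.000451 to 0.554. Without the filter on low signal the call was lost (adjusted p = 0.0505), and with an offset of 16 the ratio was -3.29. Without the wild type MOE430_2 array, in the fit with no block, it was -1.75 (adjusted p = 0.561).

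Car2 read 703.2 and 173.2 on 430A and 1086 and 126.1 on MOE430_2. Its mean log2 ratio was -2.21 ± 0.21 (adjusted p = 0.000408), from -1.77 and -2.65. Car2 was called in 9 of 10 such settings, and its Icsbp-deficient signal stayed above the offset on both types. Without the wild type MOE430_2 array, in the fit with no block, Car2 was at -1.86 and not called (adjusted p = 0.129). Among all tested probe sets the Car2 ratio was number 25 from the lowest on 430A and number 13 on MOE430_2.

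The fall was seen in 2 of the 5 carbonic anhydrases that could be tested, of 16 genes of the family on both array types. Both are members that were chosen with earlier results known, and 2.34% of all tested genes were called lower. The tested others were Car3, abundant in muscle, at a mean log2 ratio of -0.37 ± 0.17 (adjusted p = 0.269), the membrane enzyme Car12 at -0.30 ± 0.22 (adjusted p = 0.525) and the hypoxia-induced Car9. Car9 read 287.2 and 277.0 on 430A and 306.4 and 319.7 on MOE430_2, and an adjusted p of 0.963. The remaining 11 genes, Car4 and Car13 among them, did not pass the filter on low signal.

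**Figure D2:**
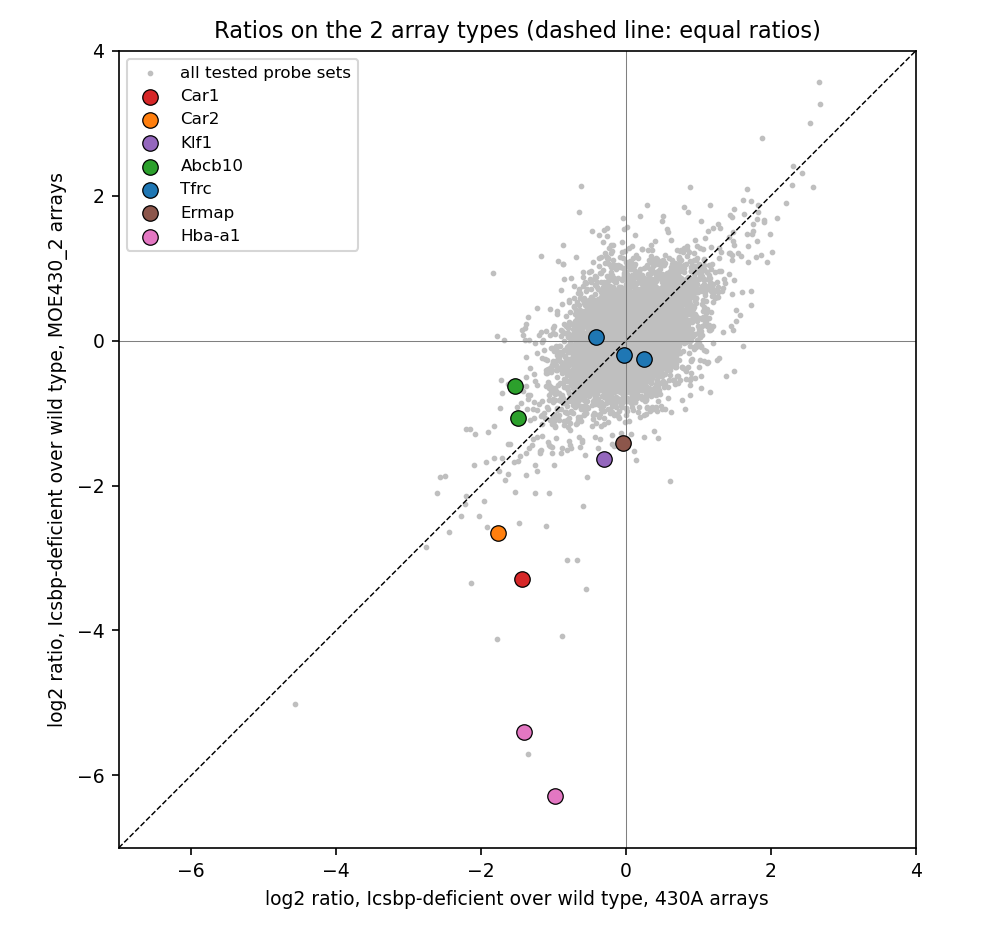
log2 ratio of Icsbp-deficient over wild type on the 430A (horizontal) and MOE430_2 arrays (vertical) for all tested probe sets in grey and the 11 tested member probe sets in colour. Car1, Klf1, Ermap and both alpha globin probe sets lie more than 1 unit below the dashed line of equal ratios, Abcb10 lies above it, and Tfrc lies near the origin.

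Alas2 encodes the erythroid form of the first enzyme of haem synthesis. Its single probe set read 5.52 and 5.38 on 430A and 11.2 and 7.25 on MOE430_2, at percentiles of 4.40 to 15.1 of the arrays. All 4 values lay far under the offset, and the probe set was not tested.

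Abcb10 encodes a transporter of the inner mitochondrial membrane that is needed for haem synthesis in red cell precursors. Its first probe set read 1141 and 377.2 on 430A, and 580.6 and 243.4 on MOE430_2. The second read 825.4 and 253.7, and 261.5 and 146.6. Within each array type the wild type array was the higher for both probe sets. Mean log2 ratios were -1.28 ± 0.16 (adjusted p = 0.00223) and -1.08 ± 0.22 (adjusted p = 0.0207). Unlike those of the globins, both had the lower ratio on 430A, at -1.49 and -1.53, against -1.07 and -0.62 on MOE430_2. The first was called in 9 of 10 other settings that kept all 4 arrays and the second in 6 of 10. Neither was called when 1 array was left out of the fit with no block (adjusted p from 0.113 to 0.999). The second probe set was at -0.43 without the wild type 430A array and at -1.78 without the wild type MOE430_2 array. The remaining Abcb10 probe set was not tested, with 142.3 and 107.1 on 430A and 34.0 and 45.1 on MOE430_2.

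Of the 15 tested genes of haem synthesis and mitochondrial transport, Abcb10 was the only one called, against 5.6% of all 7820 tested genes called, 2.34% lower and 3.26% higher, and the list's median log2 ratio was -0.03, as against -0.01 over all tested genes. Alad, the second enzyme of the pathway, had -0.54 on 430A and -0.66 on MOE430_2 (adjusted p = 0.0597). Uncalled genes whose array types lay furthest apart were Clpx, a mitochondrial unfoldase that acts on ALAS, at 0.93 and 0.06, and the porphyrin transporter Abcb6 at -0.30 and 0.36.

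Tfrc encodes the transferrin receptor, which takes up iron and is present on most dividing cells. The brightest probe set read 3010 and 2950 on 430A, and 3244 and 2865 on MOE430_2. The next read 1389 and 1032, and 635.5 and 651.3. The dimmest read 354.1 and 431.4, and 213.5 and 164.2. Within an array type the genotypes lay close together in all of them. Mean log2 ratios were -0.11 ± 0.12 (adjusted p = 0.672), -0.18 ± 0.16 (adjusted p = 0.615) and -0.01 ± 0.18 (adjusted p = 0.993), and the last 2 had opposite signs on the array types. The 3 control probe sets for Tfrc, at the 3′, middle and 5′ parts of the transcript, had wild type over Icsbp-deficient ratios of scaled signal of 0.964, 1.04 and 0.953 on 430A and of 1.27, 1.25 and 1.46 on MOE430_2.

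At an unadjusted p under 0.05 in limma, 3 of 15 tested genes of iron uptake, storage and sensing were lower and 2 higher. Over all tested genes these shares were 9.95% and 9.55%. At the adjusted threshold 1 of the 15 fell and 2 rose, where 2.34% of all tested genes were called lower and 3.26% higher. The fall was in Tfr2, the second transferrin receptor, which is made in liver and erythroid cells, at -1.18 ± 0.19 (adjusted p = 0.00775), with signals of 517.9 and 260.6 on 430A and 358.4 and 91.7 on MOE430_2. The rises were in Hfe, a class I-like protein that binds the transferrin receptor, at 1.00 ± 0.16 (adjusted p = 0.00754), and the ferritin cargo receptor Ncoa4 at 0.51 ± 0.13 (adjusted p = 0.0479). The zinc and iron carrier Slc39a14, at -0.88 and -0.40, and the iron chaperone Pcbp1, at -0.42 and 0.00, were not called.

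Among 15 tested genes of the red cell membrane and blood groups 0 fell and 1 rose in limma at the adjusted threshold, the rise being the membrane scaffold protein Stom at 0.71 ± 0.12 (adjusted p = 0.00883). At an unadjusted p under 0.05, 1 was lower and 2 were higher, where 9.95% of all tested genes were lower and 9.55% higher. Ermap had the widest gap between array types of the uncalled genes, followed by the laminin receptor Bcam at 0.30 and -0.38. Of the 23 tested erythroid transcription and signalling genes 3 fell and 0 rose in limma. Over all tested genes 2.34% were called lower and 3.26% higher. At an unadjusted p under 0.05, 6 of the 23 were lower and 3 higher. Gata2, which acts in stem, mast and early erythroid cells, had signals of 744.9 and 176.5 on 430A and 296.1 and 59.6 on MOE430_2, and a mean log2 ratio of -1.72 ± 0.17 (adjusted p = 0.000584). The GATA cofactor Zfpm1 fell by 1.16 ± 0.24 (adjusted p = 0.0233) and the stem and erythroid factor Tal1 by 0.95 ± 0.17 (adjusted p = 0.0118). Gata1, the main erythroid GATA factor, was at -0.26 and -0.77 (adjusted p = 0.247), and Tcf3, an E protein that pairs with TAL1, at -0.84 and -0.21 (adjusted p = 0.139). Of 16 tested genes reported elsewhere as KLF1 targets 3 fell, namely Car1, Abcb10 and Tfr2, and 0 rose in limma. Car1 and Abcb10 are members that were chosen with earlier results known, and 2.34% of all tested genes were called lower. At an unadjusted p under 0.05, 5 of the 16 KLF1 targets were lower and 1 was higher. That list had a median of -0.16, and among its uncalled genes the erythropoietin receptor Epor was at -0.13 and -0.52.

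**Figure D3:**
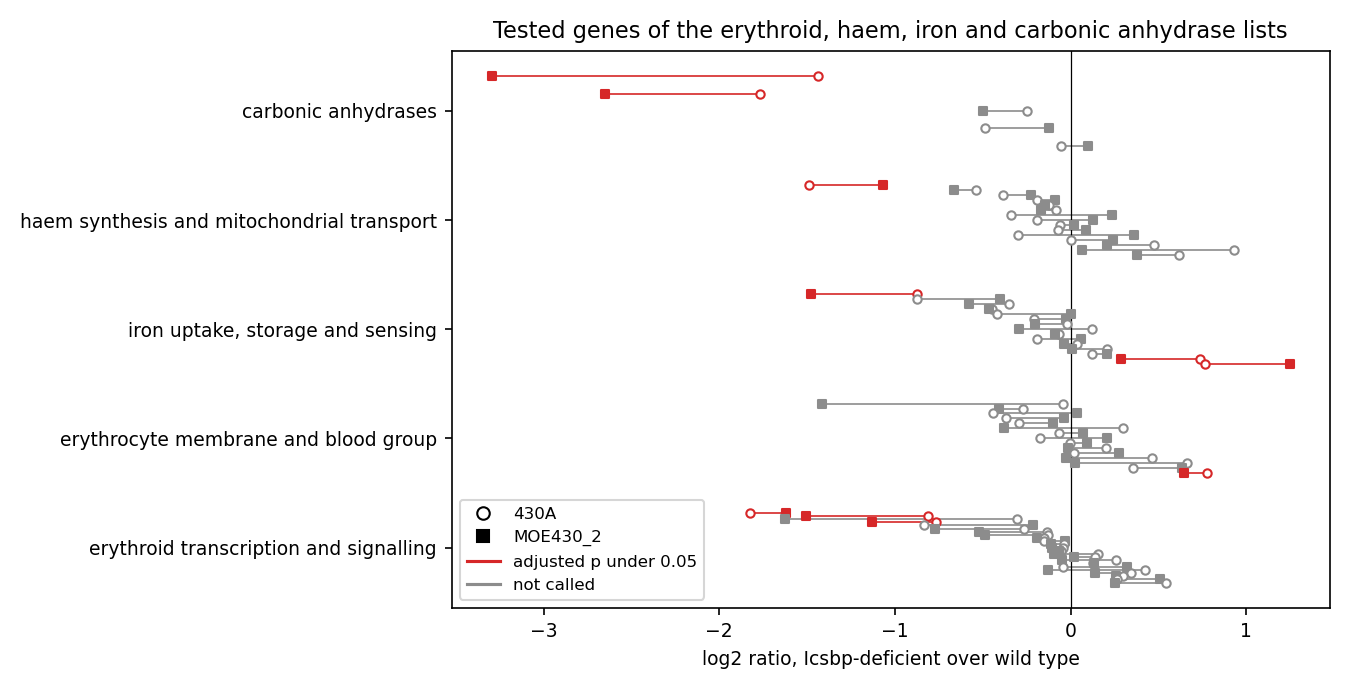
log2 ratios of Icsbp-deficient over wild type on the 430A (open circles) and MOE430_2 arrays (squares), joined by a line for each tested gene of 5 lists, with called genes in red. Car1, Car2, Abcb10, Tfr2, Gata2, Zfpm1 and Tal1 lie to the left, Hfe, Ncoa4 and Stom to the right, and most other genes lie around 0.

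The array types disagreed more for some members than for most probe sets. The absolute difference between the 2 ratios had a median of 0.22 over all tested probe sets, a 95th percentile of 0.81 and a 99th of 1.29, and it was over 1 for 2.51% of them. The MOE430_2 ratio was lower by more than 1 for 5 of the 11 tested member probe sets, against 1.12% of all tested. The MOE430_2 ratio minus the 430A ratio was -1.86 for Car1, -1.32 for Klf1, -1.37 for Ermap and -5.30 and -4.00 for the alpha globin probe sets. No tested member had the reverse difference of that size, and Abcb10 came nearest, at 0.42 and 0.91. Differences of this size were also seen outside the members. The MOE430_2 ratio minus the 430A ratio was -4.36 for the beta globin probe set. It was -2.88 for Epx, -2.34 for Prg2, -1.05 for Ms4a2 and -1.04 for Fcer1a, all 4 genes markers of mast cells, basophils or eosinophils. The rest of the 9 tested genes of that marker list lay between -0.49 (Mcpt8) and 0.33 (Hdc). For the megakaryocyte marker Selp the difference was 1.23. The rest of the 5 tested megakaryocyte markers lay between -0.40 (Itga2b) and 0.12 (Gp9). Of the 71 tested genes of the 7 pathway lists that are not members, 0 differed by more than 1, but those lists held no tested globin, since probe sets with several symbols were left out. With 1 array of each genotype per type the difference could not be tested. Each array was also its own pool of mice, and the kits named in the labels differ between the array types. Array type, pool and kit can thus not be told apart here.

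The rank within an array does not depend on the scaling. The first alpha globin probe set stood at percentile 73.3 of the wild type 430A array and 97.1 of the wild type MOE430_2 array, and at 58.2 and 18.1 of the Icsbp-deficient arrays. Car1 went from 52.8 to 71.6 between the wild type arrays and from 24.7 to 2.31 between the Icsbp-deficient ones. A higher rank in wild type together with a lower rank in Icsbp-deficient GMP on the MOE430_2 arrays was seen for 5 of the 11 tested member probe sets, those of Car1, Klf1, Ermap and the alpha globins, and for 11.3% of all tested probe sets. That pattern was chosen after the values were seen. Car2 was at percentiles 77.3 and 85.2 of the wild type arrays and at 49.7 and 50.9 on the Icsbp-deficient ones. Abcb10 and Tfrc did not share the pattern. For instance, the first probe set of Abcb10 was at 85.8 and 75.4 in wild type.

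**Figure D4:**
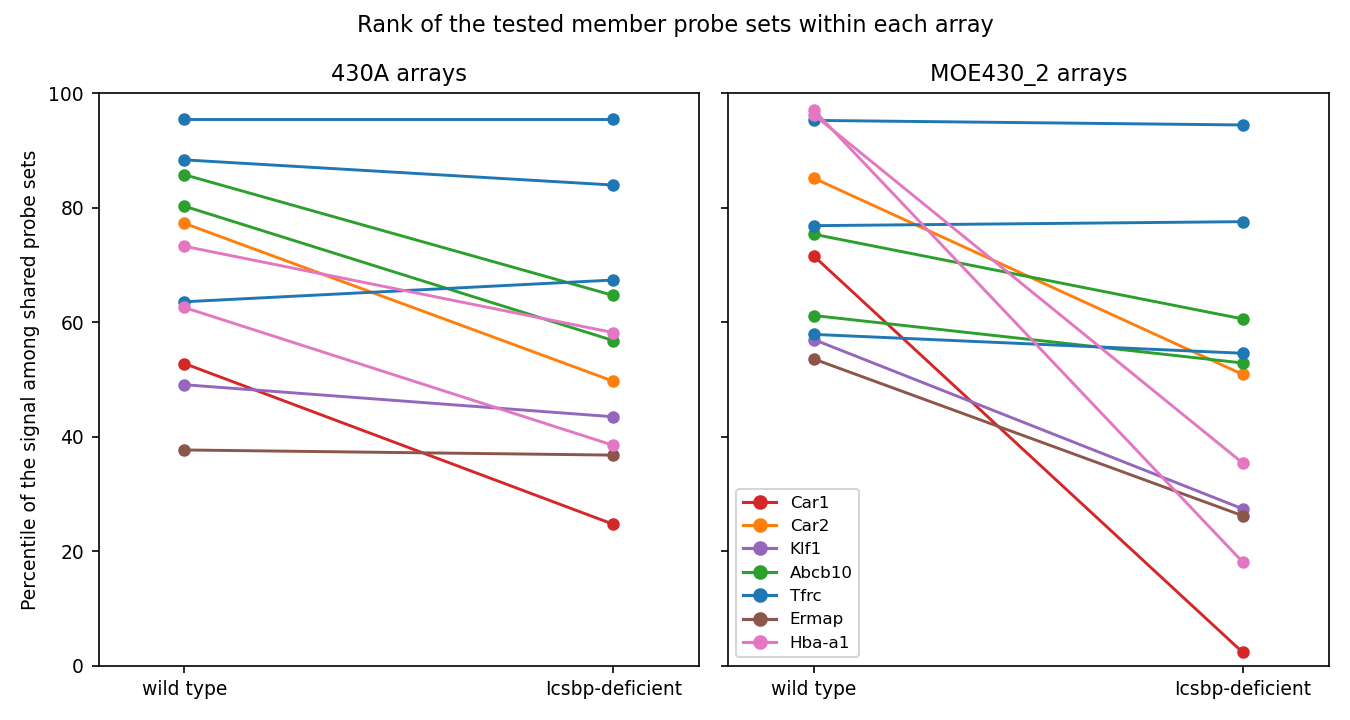
Percentile of the signal of the 11 tested member probe sets among 22626 shared probe sets of the same array, wild type joined to Icsbp-deficient, for the 430A (left) and MOE430_2 arrays (right). The alpha globin lines run from 97.1 and 96.3 down to 18.1 and 35.4 on MOE430_2, against 73.3 and 62.6 down to 58.2 and 38.5 on 430A.

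Markers of other cells were read on the same arrays. Of 13 erythroid marker genes 8 were on both array types, and their scaled signals summed to 894 and 674 on 430A, and 857 and 255 on MOE430_2. Under the offset were 2 and 4 of the 8 on 430A and 1 and 7 on MOE430_2, and Klf1 and Ermap are among the 8. Of the 4 that were tested 0 were called, against 3 lower at an unadjusted p under 0.05. Slc4a1, the anion exchanger of mature red cells, read 56.1 and 11.4 on 430A and 79.2 and 34.0 on MOE430_2, and the blood group gene Rhag 41.3 and 27.5, and 60.5 and 12.6. Of 13 mast cell, basophil and eosinophil markers on both array types the summed signal was 8708 and 5136 on 430A and 11700 and 5578 on MOE430_2. In limma 8 of 9 tested genes fell, from Prg2 at -2.95 and Cpa3 at -2.81 to Mcpt8 at -0.87, Gata2 among them. At an unadjusted p under 0.05, 8 were lower and 1 was higher. Over all tested genes 2.34% were called lower and 3.26% higher. Lymphocyte markers summed to 6398 and 5896 on 430A and to 6767 and 5735 on MOE430_2, and Nkg7, which is not restricted to lymphocytes, gave most of it, at 5599 and 4919, and 6228 and 5103. Of the 2 that were tested 0 were called, against 1 lower at an unadjusted p under 0.05. Megakaryocyte markers summed to 1464 and 1144 on 430A and to 736 and 489 on MOE430_2, and 1 of 5 tested was called, Itga2b at -0.86. The others were Selp at -0.65, Gp5 at 0.02, Gp9 at 0.08 and Gp1bb at 0.24. The part of these cells in the results above was not tested. All 10 GMP markers, Mpo and Elane among them, were above the offset on all 4 arrays, and of these Cd34 fell by 1.73 while Fcgr3, Cebpa and Csf2ra rose by 1.00, 0.69 and 0.55.

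The targeted gene was read by 2 probe sets, the first with 3059 and 2776 on 430A and 4798 and 2725 on MOE430_2 (Irf8 adjusted p = 0.124) and the second with 3074 and 3234, and 1847 and 1892 (adjusted p = 0.832). As the deleted part is not known here, they do not check the labels.

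Genes whose pair of ratios lay closest to that of Car1, by Euclidean distance over the 2 array types, were the monocyte factor Klf4 (-2.14 and -3.34), the immunoglobulin E receptor chain Fcer1a (-1.47 and -2.51), the cytotoxic protease Gzmb (-1.91 and -2.58), the eosinophil major basic protein Prg2 (-1.77 and -4.12) and the eosinophil peroxidase Epx (-0.56 and -3.43), at distances of 0.71 to 0.89. All 5 were called lower, which follows largely from choosing genes with ratios like those of Car1. Closest to Klf1 were the lipase Lpl (-0.38 and -1.49), the efflux pump Abcb1b (-0.19 and -1.43), the class II gene H2-Eb1 (-0.56 and -1.58), Glrp1 (-0.36 and -1.36) and the muscle protein Csrp3 (-0.54 and -1.88), at distances of 0.16 to 0.35. Of these H2-Eb1 and Csrp3 were called. With 2 ratios per gene this likeness is a description of 4 arrays.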

How the data were processed

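The authors deposited linear intensity values, 1 for each probe set and array, with 22690 probe sets on 430A and 45101 on MOE430_2. Per the submitters' processing notes the MOE430_2 signals came from GCOS, with settings not given. Per the labels, an ENZO kit served for the Icsbp-deficient 430A array and one-cycle kits for both MOE430_2 arrays, and none is named for wild type 430A. After 64 controls were removed, 22626 probe sets were shared, and the deposited trimmed means over these (2% off each end) were 498.5 for wild type and 167.1 for Icsbp-deficient 430A, and 160.4 and 158.6 for MOE430_2. No detection calls were used.

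Arrays were scaled to a common trimmed mean of 500, and log2 of the signal plus 50 was quantile normalized within an array type. Probe sets under the 40th percentile of mean signal were not tested. limma 3.58.1 in R 4.3.3 was fitted with array type as a block and an intensity trend (two-sided, threshold 0.05), which left 1 residual degree of freedom beside 8.89 prior ones. The number of arrays limits the precision. The script was tested on simulated data. Of the shared probe sets 20380 had 1 platform symbol, 691 several and 1555 none, and the RefSeq gene table of GRCm38.p6 matched 20351. List counts used 1 tested probe set a gene and left out those with several symbols.

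Named are all members, Irf8, the called genes of each list (at most 8), its 2 uncalled genes with the widest gap between array types, and the 5 genes nearest to Car1 and to Klf1. Alad, Gata1, Car9, Slc4a1, Rhag and the beta globin probe set were added after values were seen, as were Gp5 and Gp1bb. Kit and Cd79b, which the rule also names, are given in list totals. The members and lists were chosen with earlier results of these data known. Replicates are separate pools, and p-values measure only the spread between these arrays. Replicate numbers coincide with array type, so the block is also the pairing. It rests on the shared array design, not on shared animals. A further Icsbp-deficient preparation in the design text is not analysed here.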

Additional observations from a re-analysis of the deposited data

Results flagged for a closer look

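For 4 member probe sets the ratios of the 2 array types had opposite signs, and with 1 array of each genotype per type this was not tested. The MOE430_2 ratio minus the 430A ratio was -0.10 for Alas2, 0.48 for the dimmest probe set of Abcb10, 0.47 for the middle one of Tfrc by signal and -0.50 for the dimmest one of Tfrc. The first 2 were below the filter on low signal.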

How the results depend on the processing

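Called probe sets numbered 696 of 13576, of which 6 were members, and 10 genes of the 7 lists were called. With scaling only, cyclic loess, a floor of 50, an offset of 16, normalization over all MOE430_2 probe sets or the 60th percentile filter, these counts stayed within 1.5 times, at 507 to 865 probe sets and 5 or 6 members. With the values as deposited 397 probe sets and 3 members were called, and 2 members in place of 5 had array types more than 1 apart. Without the filter on low signal the counts were 266 probe sets, 2 members and 5 list genes, and without the intensity trend 267 probe sets and 3 members. The calls rest on the block. With no replicate block 2 probe sets, 0 members and 0 list genes passed limma's adjusted threshold. Leaving out 1 array in that unblocked fit, where the lone array is assumed to vary like the others, gave 17 to 85 probe sets, 0 to 4 members and 0 to 3 list genes, and it was without the wild type MOE430_2 array that 0 members and 0 list genes passed. The 6 called probe sets of Car1, Car2, Abcb10 and the alpha globins stayed lower in each of these settings, but not at the same size. When 1 array was left out, Car1 ran from -3.04 to -1.75, Car2 from -2.52 to -1.86, the Abcb10 probe sets from -1.73 to -0.88 and from -1.78 to -0.43, and the alpha globin probe sets from -4.99 to -2.06 and from -4.99 to -1.60. The ratio of the dimmest Tfrc probe set changed sign, to 0.0228 with the values as deposited and 0.0108 with no replicate block. When 1 array was left out it ran from -0.43 to 0.45, that of the middle one from -0.70 to 0.31 and that of the brightest from -0.21 to 0.0084. Counts of calls could not be had from 1 array type alone.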
